A study of Mus musculus with 51 samples.

Results

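The genes described here are 10 genes of the heat shock system, Hspa1a, Hspa1b, Hspa8, Hsph1, Hsp90aa1, Dnajb1, Hspb1, Bag3, Hspd1 and Hsf1, which were selected by their symbols among the 40077 genes of the deposited mouse tables. All 10 passed the filter on low counts in every comparison. Heat shock proteins are chaperones that hold unfolded proteins in solution, refold them or pass them on for degradation. Most of these genes are switched on together by the transcription factor HSF1, which chaperones keep inactive until misfolded or ubiquitin-marked proteins draw the chaperones away. Blocking protein degradation is a well-known way to start this response. The set is not purely cytosolic, because Hspd1 encodes the chaperonin of the mitochondrial matrix and Hsf1 encodes the transcription factor itself.

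The study modulated UBA1, the E1 enzyme at the head of the ubiquitin cascade, in Myc-CaP, a mouse prostate cancer line driven by Myc, and in B16-BL6, a mouse melanoma line. RNA-seq covered 35 subcutaneous tumors and 16 libraries of cultured Myc-CaP cells in 6 experiments. The tumors carried a guide RNA against Uba1 (sgUba1, 4 in B16-BL6 and 7 in Myc-CaP) or a control guide (sgNC, 3 in each model), Uba1 overexpressed from a lentiviral cDNA (Uba1 OE, 4) or the empty vector (EV, 3), or came from mice given TAK-243, an inhibitor of UBA1 (5), or vehicle (6). The cell experiments compared sgUba1 with control cells (NC), and cells given 50 nM TAK-243 with untreated cells, each with and without interferon-γ (IFN-γ) and with 2 libraries a group. Myc-CaP tumors grew in male FVB mice and B16-BL6 tumors in female C57BL/6 mice. According to the methods, guide-edited lines were only partly depleted of Uba1 and were grown from sorted single cells, so that a guide effect and a clone effect cannot be told apart. Cells were injected in both flanks, so some tumors may share a mouse. Nothing in the labels says that the paired cell libraries were separate cultures, and p-values then measure only the spread between these libraries.

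The total expected count per library lay between 8652097 and 35693203 in tumors and between 12860987 and 38032395 in cells. CPM values below are read counts relative to the library's scaled total within an experiment, and TPM values are also divided by transcript length. The 7 B16-BL6 libraries held 2903 to 3367 TPM of the melanocyte gene Pmel, which reached at most 3.66 in the 44 Myc-CaP libraries. The Myc-CaP libraries held 3.46 to 31.5 TPM of the prostate marker Hoxb13, whereas the epithelial markers Epcam, Krt18 and Cdh1 reached at most 0.531, 2.13 and 1.06 TPM. Uba1 itself stood at 283 and 295 CPM in sgUba1 cells compared with 526 and 533 in NC cells, and at 208 to 247 CPM in B16-BL6 sgUba1 tumors compared with 410 to 455 in their controls. In Uba1 OE tumors it stood at 631 to 747 CPM compared with 278 to 310 in EV tumors. In the 7 Myc-CaP tumors labelled sgUba1, Uba1 lay at 197, 202 and 211 CPM in tumors 1 to 3. In tumors 4 to 7 it lay at 361 to 383 CPM, above every control (320 to 337), so their Uba1 RNA was not lowered. RNA alone does not show whether these 4 carried the edit. The paper used independent guides against Uba1, and the labels do not say which guide a tumor carried. All 7 are called tumors labelled sgUba1 below, and their results are given with and without tumors 4 to 7. TAK-243 tumor 1 stood apart in skin keratinocyte markers, which summed to 99.6 TPM there.

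The promoters of these genes were searched for the letters that HSF1 is known to bind. HSF1 recognizes heat shock elements, arrays of the unit GAA in alternating directions. Head-to-head pairs (GAANNTTC), tail-to-tail pairs (TTCNNGAA) and 3 alternating units (GAANNTTCNNGAA or TTCNNGAANNTTC, which contain both pairs) were searched as exact letters, and each pair reads the same on both strands. RefSeq promoters of GRCm38.p6 were matched by symbol for 7 of the 10 genes. The promoter set used held no entry for Hspa8, Hsp90aa1 and Hsf1, so their promoters were not searched. In the 250 bases before the start, 5 of the 7 genes held at least 1 pair. Of the 27025 genes with a promoter, 14.5% held a pair of either kind, 7.73% a head-to-head pair, 8.11% a tail-to-tail pair and 0.514% 3 units at any of their starts. Over the 32851 promoters the share with a pair was 12.8%. Among the other chaperone lists, a pair stood upstream in 8 of 25 other cytosolic chaperone genes, 2 of 7 TRiC chaperonin genes, 1 of 8 mitochondrial chaperone genes and 0 of 18 endoplasmic reticulum (ER) chaperone genes. These counts describe letters in a window and say nothing about binding in these cells.

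The sequences shown are those that hold a match upstream, since these 5 genes include both the gene that rose most and the gene that did not pass the test in TAK-243 cells. Each reads 5′ to 3′ on the gene's strand up to the last base before the annotated start, and capitals mark the matched pair or array.
Hspb1, chr5:135887799-135887918 (plus strand): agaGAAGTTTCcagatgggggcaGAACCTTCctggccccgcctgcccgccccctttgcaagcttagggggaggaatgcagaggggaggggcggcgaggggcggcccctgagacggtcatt
Hspa1a, chr17:34972157-34972276 (minus strand): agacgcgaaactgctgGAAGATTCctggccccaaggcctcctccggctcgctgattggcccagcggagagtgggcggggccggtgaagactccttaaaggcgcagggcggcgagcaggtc
Hspa1b, chr17:34959239-34959358 (minus strand): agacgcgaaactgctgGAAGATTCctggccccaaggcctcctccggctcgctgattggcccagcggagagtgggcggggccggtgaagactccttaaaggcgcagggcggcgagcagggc
Hsph1, first start, chr5:149636337-149636456 (minus strand): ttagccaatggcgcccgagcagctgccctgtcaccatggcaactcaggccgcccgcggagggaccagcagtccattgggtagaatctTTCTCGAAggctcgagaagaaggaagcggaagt
Hspd1, second start, chr1:55087933-55088082 (minus strand): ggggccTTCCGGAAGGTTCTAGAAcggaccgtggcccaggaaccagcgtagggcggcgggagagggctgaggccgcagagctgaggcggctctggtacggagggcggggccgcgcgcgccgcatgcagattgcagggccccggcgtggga

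Hspb1 was the member with 2 separate head-to-head pairs, which began at -117 and -97 from its start. Hspa1a and Hspa1b are neighbouring genes on chromosome 17 whose printed windows matched at 119 of 120 bases, with the pair at -104 in both. Their transcripts are also alike, since 63.8% of the 31-base words of Hspa1a occur in Hspa1b and 67.6% of those of Hspa1b occur in Hspa1a, so estimated counts can be split between them unevenly, whereas the other 8 genes shared 0. Hsph1 held a tail-to-tail pair at -33 from its first start and 3 alternating units 37 bases after it. Hspd1 held the longest array, 4 alternating units from -144, before the second of its 2 annotated starts. The same array, read on the other strand, begins at -89 from the start of the neighbouring gene Hspe1, so it is not particular to Hspd1. Bag3 had no pair upstream and 1 head-to-head pair 43 bases after its start, and Dnajb1 had no match before or after either start. The map of matches around the starts shows these places.

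**Figure D1:**
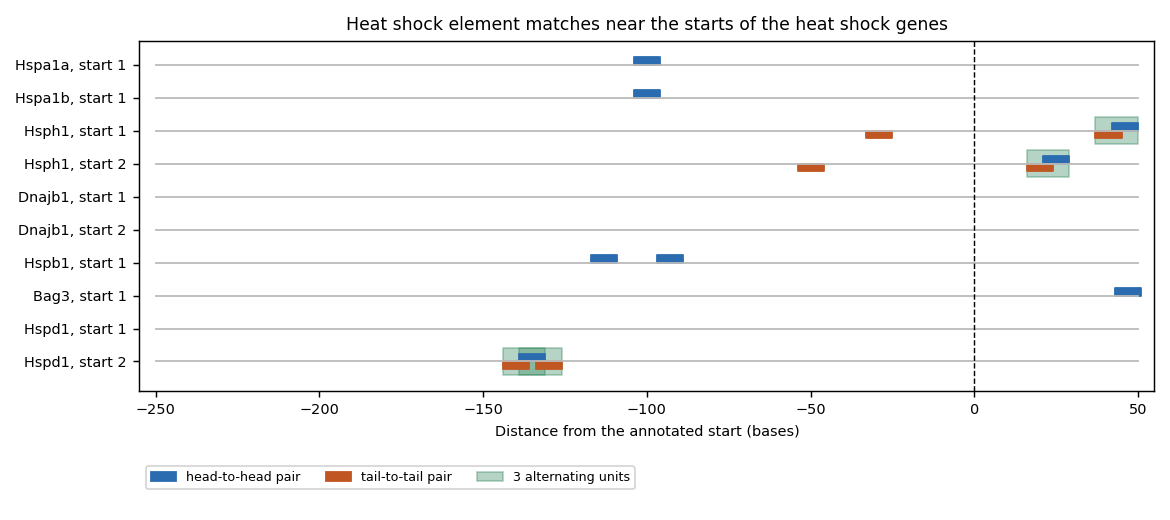
Matches to heat shock element letters from 250 bases before to 50 bases after each annotated start (dashed line) of the 7 genes with a RefSeq entry, by distance in bases. Hspb1 carries 2 pairs at -117 and -97, Hspa1a and Hspa1b carry 1 each at the same place, and the array of Hspd1 lies before its second start only.

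TAK-243 raised 9 of the 10 genes in cultured cells. The small heat shock protein gene Hspb1 rose by 3.50 on the log2 scale, an 11.3-fold difference, the Hsp90, Hsp70, Hsp110 and Hsp40 chaperone genes rose by 1.37 to 1.90, and the cochaperone Bag3 and the factor Hsf1 rose by less than 1. Hspd1 did not pass the test. In edgeR's quasi-likelihood test at an adjusted p under 0.05, 32.3% of the 14551 genes tested were called higher and 34.0% lower, so that a call by itself was common here. Their median log2 fold change was 1.41 compared with 0.03 over all genes tested. By rank from the highest fold change, Hspb1 stood at 226 and the 6 genes from Hsp90aa1 to Hsph1 between 644 and 1052.

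Hspb1 encodes a small heat shock protein that holds unfolded proteins without using ATP. It stood at 140 and 136 CPM in untreated cells and at 1612 and 1517 CPM with TAK-243. Both treated libraries lay far above both controls (SE 0.0339, adjusted p = 4.84e-34).

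Hsp90aa1 encodes the stress-inducible cytosolic Hsp90, which stabilizes kinases and receptors. It measured 1808 and 1822 CPM in untreated cells and 6668 and 6900 CPM with TAK-243, a rise of 1.90 (SE 0.0234, adjusted p = 1.37e-31). The groups did not overlap, and the spread within each was a few percent of the difference.

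Among the Hsp70 genes, the stress-inducible pair, which was already expressed without drug, and the constitutive gene all rose. Hspa1b went from 180 and 179 CPM to 522 and 521 CPM, a rise of 1.54 (SE 0.032, adjusted p = 3.41e-26). Hspa1a went from 64.6 and 51.6 CPM to 167 and 146 CPM, a rise of 1.44 (SE 0.0689, adjusted p = 1.85e-17). Because the 2 genes share reads, their counts were also added, and the sum rose by 1.51 (SE 0.0344, adjusted p = 2.42e-25). Hspa8, the constitutive Hsc70 that also takes the clathrin coat apart, was already at 1162 and 1195 CPM without drug and reached 3142 and 2960 CPM, a rise of 1.37 (SE 0.0267, adjusted p = 6.7e-27). In each of these genes the treated libraries lay above the controls by many times the spread within groups.

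The partners of Hsp70 followed. Hsph1, an Hsp110 that exchanges the nucleotide of Hsp70, went from 222 and 217 CPM to 570 and 564 CPM, a rise of 1.37 (SE 0.03, adjusted p = 1.18e-25). Dnajb1, the Hsp40 that delivers substrates to Hsp70, went from 36.8 and 33.5 CPM to 98.8 and 92.6 CPM, a rise of 1.45 (SE 0.059, adjusted p = 3.88e-19). Bag3, which links Hsp70 to selective autophagy, went from 35.7 and 40.2 CPM to 76.4 and 69.3 CPM, a rise of 0.95 (SE 0.0678, adjusted p = 2.62e-13). Bag3 thus changed least among the chaperones and cochaperones that passed the test.

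Hsf1 encodes the factor that drives this response and is itself controlled mainly at the protein level. Its transcript stood at 44 and 39.1 CPM in untreated cells and at 65.9 and 63.9 CPM with TAK-243, a rise of 0.65 (SE 0.0666, adjusted p = 7.59e-10). Hspd1 was at 1161 and 1167 CPM without and at 1190 and 1213 CPM with the drug, a log2 difference of 0.05 (SE 0.026, adjusted p = 0.121). Hspd1 was the only one of the 10 that missed the threshold in this comparison.

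Per transcript length the order of the genes changed with the drug. In untreated cells Hsp90aa1 (952 ± 13.6 TPM, SD, n = 2) and Hspa8 (948 ± 25.1) were highest and did not differ beyond their spread, followed by Hspd1 (779 ± 8.78) and Hspb1 (295 ± 5.54). Hspa1b (100 ± 0.245) and Hsph1 (99.8 ± 1.05) were alike within their spread, as were Hsf1 (33.6 ± 3.18) and Hspa1a (30.5 ± 4.66), and Bag3 (23.4 ± 2.1) and Dnajb1 (18.3 ± 1.12) were lowest. With TAK-243, Hspb1 (3293 ± 167 TPM) passed Hspd1 and Hspa8 (2414 ± 133) and stood just below Hsp90aa1 (3496 ± 27.8). Hspd1 stayed at 779 ± 4.13 TPM. Added up, the 10 genes held 3256 and 3304 TPM without and 10533 and 10963 TPM with the drug.

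**Figure D2:**
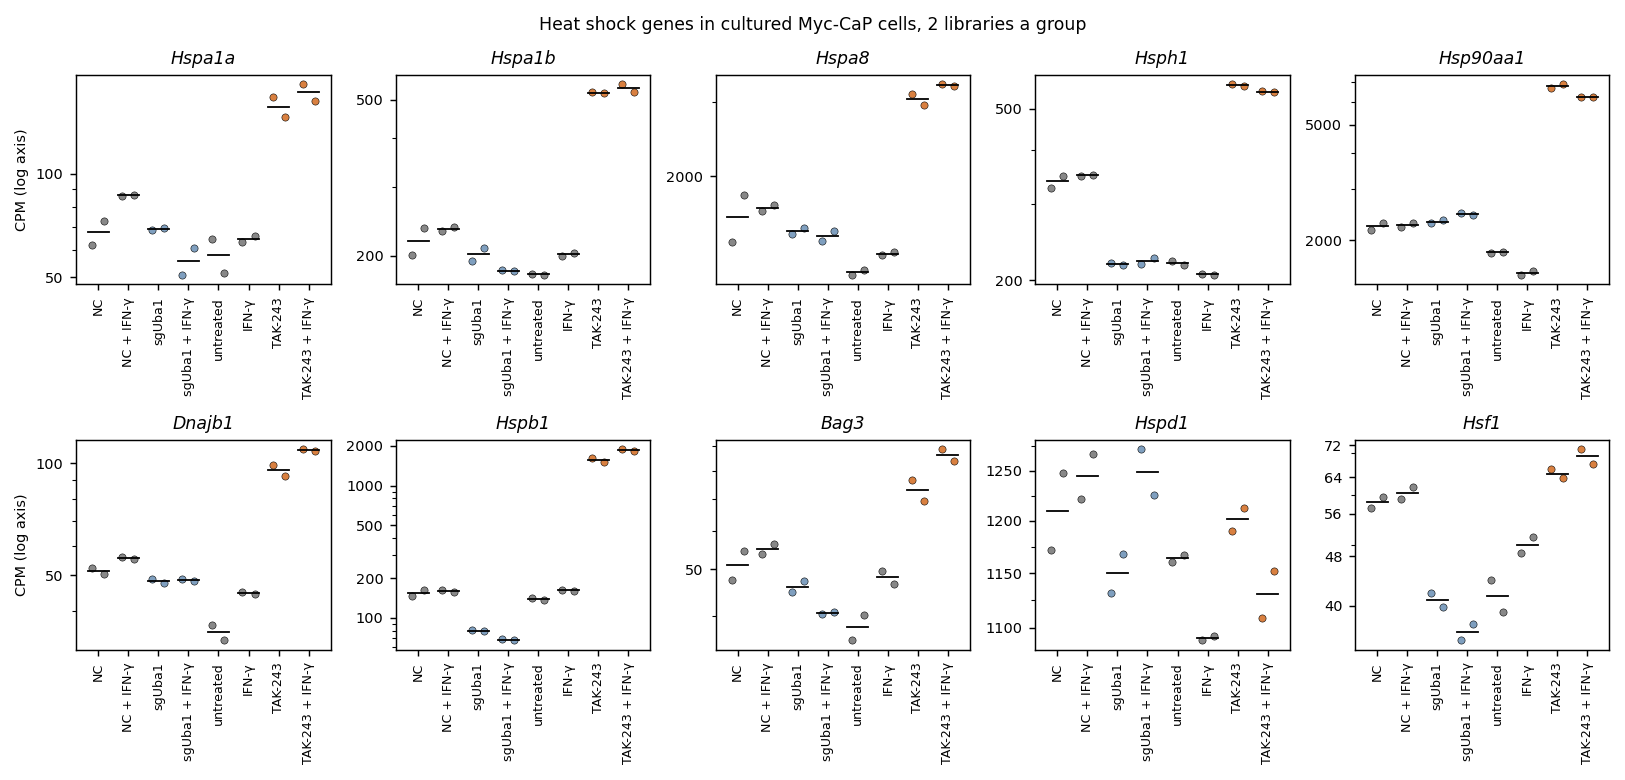
CPM of each gene (log axis, its range set per panel) in the 8 groups of cultured Myc-CaP cells, with 1 point a library and a bar at the mean of 2. The 4 TAK-243 libraries (orange) lie above all 12 others in every panel except Hspd1. CPM is scaled within an experiment, and the NC and sgUba1 libraries come from a separate experiment. The sgUba1 libraries (blue) lie below the NC libraries for Hspb1, Hsph1 and Hsf1, and by a narrow margin for Bag3 and Dnajb1.

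With IFN-γ in both arms the TAK-243 differences were of similar size. Compared with cells given IFN-γ alone, the same 9 genes were higher with TAK-243 plus IFN-γ, against 32.0% of all genes tested called higher and 36.2% lower. Hspb1 rose from 163 and 160 to 1883 and 1821 CPM, or by 3.52 (SE 0.0336, adjusted p = 3.34e-34). Hsp90aa1 rose by 2.01, Hspa1a and Hspa1b by 1.41 each, Hsph1 by 1.40, Hspa8 by 1.34, Dnajb1 by 1.28, Bag3 by 0.84 and Hsf1 by 0.47. Hspd1 differed by 0.05 (adjusted p = 0.0798), and was called without the first TAK-243 plus IFN-γ library (0.08). It was also called higher with DESeq2 and RLE scaling (0.08 each), limma-voom and a replicate block (0.05 each), only the groups compared (0.07), a minimum of 10 counts (0.11) and either TPM scale (0.20 each), where the median of all genes stood at 0.12 or 0.18. The test of the difference between the TAK-243 effects with and without IFN-γ called 0 of the 10 genes by edgeR, against 2.38% of all genes, with 3 at an unadjusted p under 0.05 and with 1 called by DESeq2 and 1 by limma-voom. That gene was Hsp90aa1, whose effect was larger by 0.11 with IFN-γ (SE 0.0322, adjusted p = 0.0596 by edgeR). It was also called when any 1 of 5 libraries was left out (0.14 to 0.18), namely either TAK-243 library, the second IFN-γ library or either TAK-243 plus IFN-γ library.

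In sgUba1 cells 3 of the genes differed from NC cells, in the direction opposite to the drug. Of the 10 genes, 0 rose and 3 fell in sgUba1 cells compared with NC cells, where 16.2% of the 15530 genes tested were called higher and 13.6% lower. In either direction 4618 genes were called, so that 3 of 10 was close to the share of all genes. Hspb1 stood at 146 and 161 CPM in NC cells and at 80.3 and 78.9 CPM in sgUba1 cells, and fell by 0.95 (SE 0.0549, adjusted p = 8e-07). Hsph1 stood at 328 and 350 CPM in NC cells and at 219 and 217 CPM in sgUba1 cells, and fell by 0.64 (SE 0.049, adjusted p = 6.91e-06). Hsf1 stood at 57.3 and 59.6 CPM in NC cells and at 41.9 and 39.9 CPM in sgUba1 cells, and fell by 0.51 (SE 0.0559, adjusted p = 6.45e-05). For these genes each sgUba1 library lay below each NC library. In TPM, Hsph1 stood at 107 ± 4.12 (SD, n = 2) in sgUba1, 160 ± 10 in NC and 99.8 ± 1.05 in untreated cells without a guide. Hsf1 stood at 34 ± 0.95, 48.4 ± 2.84 and 33.6 ± 3.18. For both, sgUba1 cells were thus closer to untreated than to NC cells. Hspb1, at 175 ± 0.314, lay below NC (331 ± 29.9) and untreated cells (295 ± 5.54). The untreated cells belong to the other experiment, and no test was made.

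The other 7 genes differed by -0.15 to 0.05 on the log2 scale and missed the threshold. Hspa1a was at 62 and 72.9 CPM in NC cells and at 68.7 and 69.4 in sgUba1 cells, which overlap, and Hsp90aa1 was at 2162 and 2298 CPM compared with 2285 and 2345. Only these 2 differences were positive. For Bag3 (-0.15), Dnajb1 (-0.09) and Hspd1 (-0.07) each sgUba1 library lay below each NC library, and for Hspa1b and Hspa8 the groups overlapped. The first NC library decided part of this count, since without it 7 genes were called lower, the 3 above with Hspa1b (-0.22), Hspa8 (-0.29), Bag3 (-0.25) and Hspd1 (-0.12), and without the second NC library Hsp90aa1 was called higher (0.10). The median log2 fold change of the 10 genes was -0.11 compared with 0.00 over all genes tested.

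With IFN-γ in both arms, 7 of the 10 genes fell in sgUba1 cells, against 22.4% of all genes called lower and 17% called higher. Hspb1 was at 163 and 157 CPM in NC cells with IFN-γ and at 69.1 and 67.7 CPM in sgUba1 cells with IFN-γ, and fell by 1.22 (SE 0.0552, adjusted p = 9.62e-08). Hsf1 was at 59.1 and 61.7 compared with 35.3 and 37.4 CPM, and fell by 0.73 (SE 0.0558, adjusted p = 3.11e-06). Hsph1 fell by 0.66, Hspa1a by 0.63, Bag3 by 0.44, Hspa1b by 0.35 and Dnajb1 by 0.19. Hspa8 (-0.22, adjusted p = 0.0776), Hsp90aa1 (0.12, adjusted p = 0.0508) and Hspd1 (0.00, adjusted p = 0.952) missed the threshold. Hsp90aa1 was called higher with DESeq2, limma-voom, RLE scaling, no filter, a minimum of 10 counts, a replicate block or only the groups compared (0.12 to 0.14), and Hspa8 was called lower with no filter, the block or only the groups compared (-0.22 each). The call of Dnajb1 was lost without the first NC library given IFN-γ (-0.19) or either sgUba1 library given IFN-γ (-0.15 and -0.14). With the counts of Hspa1a and Hspa1b added, their sum fell by 0.41 (SE 0.0673, adjusted p = 0.000446).

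Whether the guide's effect differed with IFN-γ was tested directly, and 1 gene passed. The guide's effect on Hspa1a was lower by 0.66 with IFN-γ than without it (SE 0.12, adjusted p = 0.0204), against 3.97% of all genes called lower and 0.663% higher in that test. Its values were 62 and 72.9 CPM in NC, 86.1 and 86.8 in NC with IFN-γ, 68.7 and 69.4 in sgUba1, and 50.8 and 60.9 in sgUba1 with IFN-γ. The call was not steady, since 6 genes passed without the second NC library, 2 without the first NC library, and 0 without either NC library given IFN-γ, either sgUba1 library or the first sgUba1 library given IFN-γ. For the added counts of Hspa1a and Hspa1b the difference was -0.31 (SE 0.0951, adjusted p = 0.108).

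The drug and the guide gave called differences of opposite sign for Hspb1, Hsph1 and Hsf1, and this contrast was tested across the 2 experiments, each against its own controls. The TAK-243 effect exceeded the sgUba1 effect in 9 of the 10 genes, with 25.2% of 15708 genes called higher and 30.2% lower. The gap was 4.43 for Hspb1 (SE 0.069, adjusted p = 4.79e-19), 1.99 for Hsph1, 1.83 for Hsp90aa1, 1.63 for Hspa1b, 1.51 for Dnajb1, 1.46 for Hspa8, 1.38 for Hspa1a, 1.14 for Hsf1 and 1.07 for Bag3. For Hspd1 it was 0.10 (SE 0.052, adjusted p = 0.115), and this passed without the first NC library (0.14). Hspb1 had the largest gap of the 10 on this scale, since it had both the largest rise with the drug and the largest fall with the guide. The plot of log2 fold changes sets these effects beside those in tumors.

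**Figure D3:**
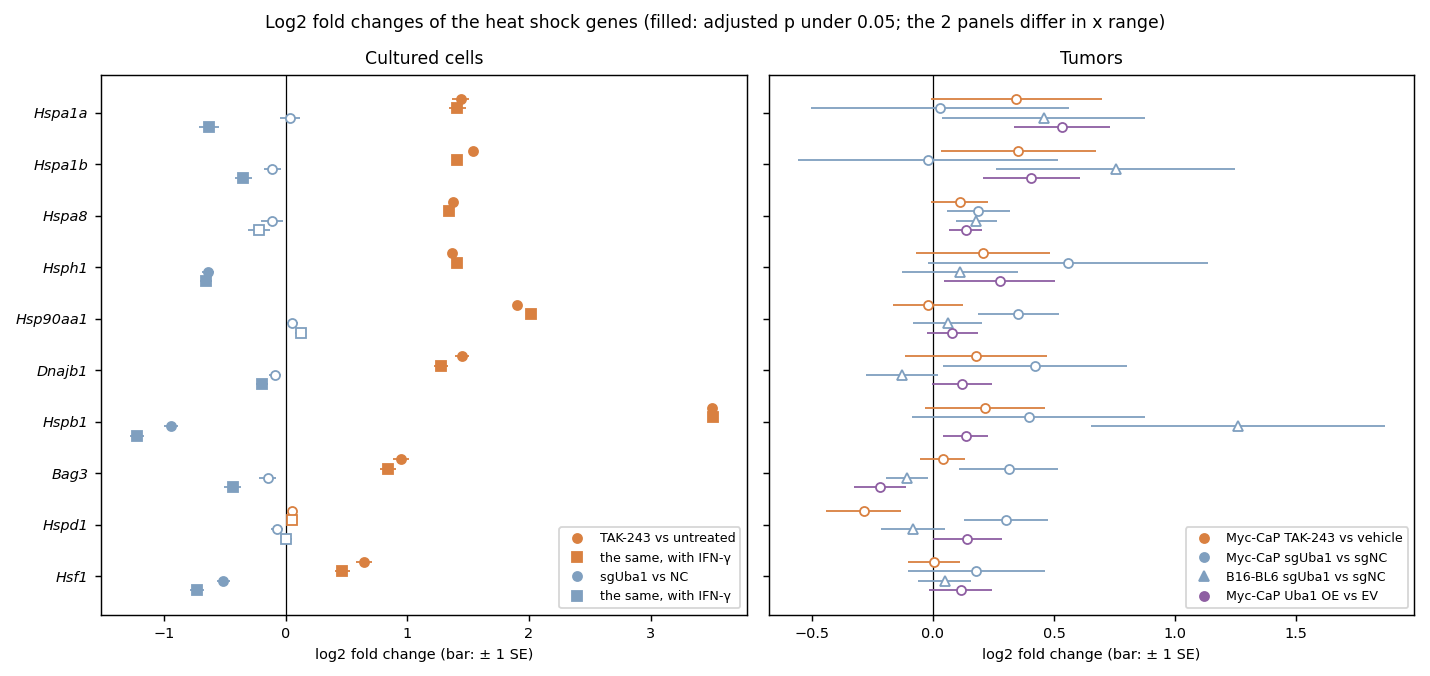
Log2 fold changes with 1 SE for each gene in cells (left) and tumors (right), where filled symbols passed an adjusted p under 0.05 and open symbols did not. In cells the TAK-243 symbols (orange) are filled and to the right of zero for 9 genes, Hspd1 is open at 0.05, and the called sgUba1 symbols (blue) to the left, and in tumors every symbol is open.

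IFN-γ alone had small effects on these genes in either experiment. In NC cells it raised 1 of the 10 genes, against 3.03% of all genes higher and 0.856% lower. That gene was Hspa1a, which rose by 0.36 (SE 0.0846, adjusted p = 0.0454) from 62 and 72.9 to 86.1 and 86.8 CPM. Without the second NC library 4 genes were called, with Hspa8 (0.27), Hspa1b (0.22) and Bag3 (0.21) beside it, and without either NC library given IFN-γ 0 were called (Hspa1a 0.37 and 0.36), and the added counts of Hspa1a and Hspa1b differed by 0.12 (adjusted p = 0.338).

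In cells without a guide, IFN-γ raised 6 genes and lowered 3, against 19.6% of all genes called higher and 9.39% lower. Dnajb1 rose by 0.35, from 36.8 and 33.5 to 45 and 44.7 CPM, Bag3 by 0.34, Hsf1 by 0.27, Hspb1 by 0.23, Hspa1b by 0.17 and Hspa8 by 0.15. Hsp90aa1 fell by 0.24, from 1808 and 1822 to 1517 and 1565 CPM, and Hsph1 and Hspd1 fell by 0.09 each. Hspa1a differed by 0.16 (adjusted p = 0.133), and was called without the first untreated library (0.33). The smallest calls rested on single libraries, since that of Hsph1 was lost without any 1 of the 4 libraries (-0.11 to -0.07), that of Hspd1 without the second untreated or the first IFN-γ library (-0.09 each) and that of Hsf1 without the second untreated (0.19) or the second IFN-γ library (0.22). On the TPM scale the median of all genes in this comparison stood at -0.14 (pseudocount 1) or -0.19 (pseudocount 0.1) in place of 0.04, and there the 3 lower genes were called and the 6 higher ones were not, those of Hspa1b and Hspa8 with a change of sign.

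Beyond the 10 genes, many cytosolic folding genes were also called higher in TAK-243 cells, where 32.3% of all genes were called higher and 34.0% lower. Of 27 other cytosolic chaperone and cochaperone genes tested, 17 rose and 8 fell (median 0.42), and of the 8 genes of TRiC, the chaperonin that folds actin and tubulin, all 8 rose (median 0.50). Of 10 mitochondrial chaperone and protease genes, 3 rose and 5 fell (median -0.17), which included Clpp (-1.06), a matrix protease, and Trap1 (-0.98), the mitochondrial Hsp90. Of 20 ER chaperone genes, 8 rose and 7 fell (median 0.05), with Hspa5 (0.93), the ER Hsp70, called and Hsp90b1 (0.04), the ER Hsp90, not. Of 31 genes of the 26S proteasome, 24 rose and 4 fell (median 0.23), Psmd1 by 0.46. The small heat shock gene Hspb6 fell by 1.06, in contrast to Hspb1. With IFN-γ in both arms, where 32.0% of all genes were called higher and 36.2% lower, the counts were 16 higher and 10 lower of the 27 cytosolic genes, 7 higher and 0 lower of the TRiC genes and 3 higher and 5 lower of the mitochondrial genes, with Hspb6 (-1.39), Trap1 (-1.18) and Clpp (-1.13) lowest.

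Of the heat shock factors and regulators beside Hsf1, Hsf2 (0.80), a second factor, and Hsbp1 (0.35), which binds HSF1, rose, as did Hsf4 and Hsf5, the last 2 from almost no counts. Hsf4, known from the lens, had 77 counts in both TAK-243 libraries together and 1 in the untreated ones, a ratio of 84.8 with a 95% exact Poisson interval of 14.8 to 3393. Hsf5, a germ cell factor, had 31 and 3 counts, a ratio of 11.4 (3.55 to 58.2), and the Hsp40 gene Dnaja4 had 65 and 2 counts, a ratio of 35.8 (9.52 to 302). These intervals cover counting error only. The 14 immediate early genes, which answer growth factors and stress within minutes and are themselves no chaperones, all rose as well, and their summed level went from 216 and 224 TPM to 1255 and 1272 TPM. Their part in the heat shock values was not tested.

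In sgUba1 cells the calls in these lists stood beside 16.2% of all genes called higher and 13.6% lower. Of the 27 other cytosolic chaperone genes 5 rose and 6 fell, of the 8 TRiC genes 1 rose and 1 fell, of the 10 mitochondrial genes 2 rose and 2 fell, of the 20 ER genes 6 rose and 4 fell, and of the 31 proteasome genes 4 rose and 5 fell. The largest increases among the chaperone lists were Dnaja4 (2.19, from 7 and 9 counts to 43 and 48), Grpel1 (0.50), the exchange factor of mitochondrial Hsp70, and Dnajb6 (0.37), an Hsp40 that holds back aggregation. The largest decreases were St13 (-0.55), which binds Hsp70, Cct6a (-0.46), a TRiC subunit, and Chordc1 (-0.41), a partner of Hsp90. With IFN-γ in both arms, where 17% of all genes were called higher and 22.4% lower, 4 of the 27 cytosolic genes rose and 11 fell, 2 TRiC genes rose and 1 fell, 2 mitochondrial genes rose and 2 fell, and 5 ER genes rose and 8 fell. There Dnaja4 (1.70), Dnajb6 (0.41) and Hspe1 (0.36), the partner of the Hspd1 product, rose most, and Clpb (-0.59), Cct6a (-0.53) and Hspb6 (-0.46) fell most.

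**Figure D4:**
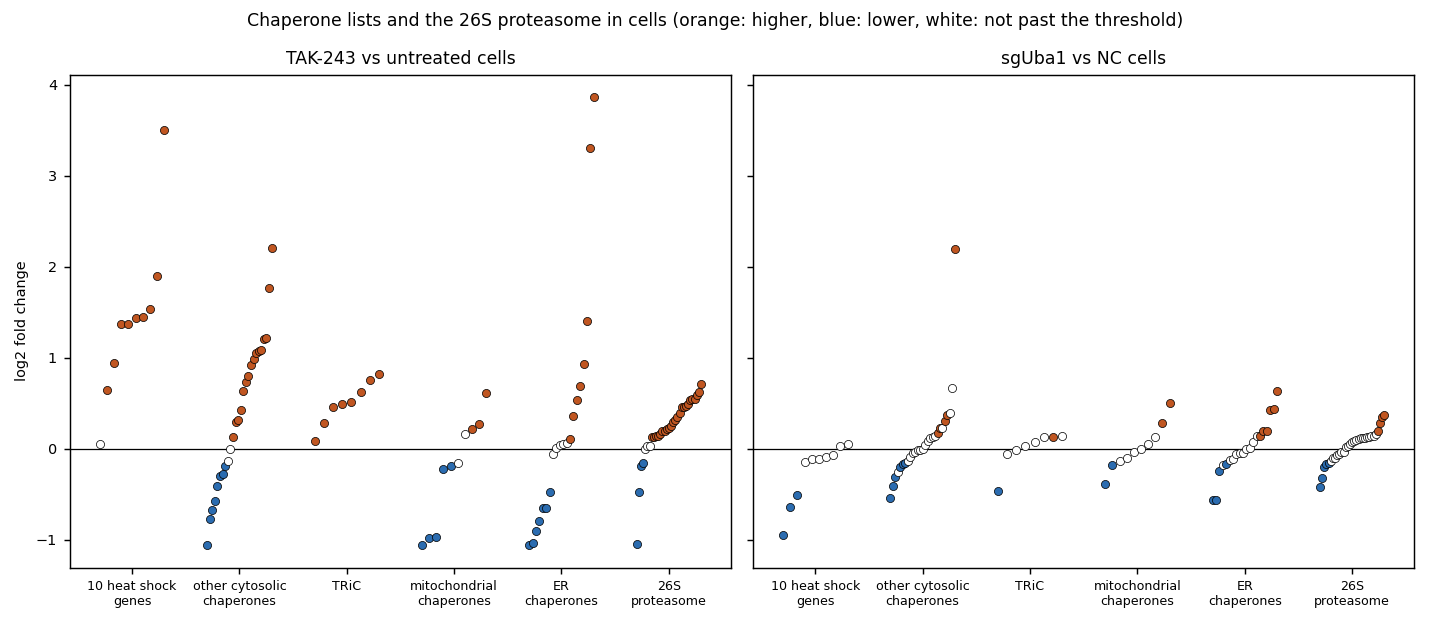
Log2 fold change of each tested gene in the 10 heat shock genes and 5 wider lists in TAK-243 cells (left) and sgUba1 cells (right), sorted within a list. Dnaja4 is left out at left, where 2 counts stood in the controls. With the drug the 10 genes have a median of 1.41 and TRiC one of 0.50, whereas the mitochondrial list centres below zero at -0.17.

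In tumors, 0 of the 10 genes passed the threshold in any of the 4 comparisons by edgeR, and DESeq2 and limma-voom also called 0. The background was low as well, at 0.724% of genes called in B16-BL6 sgUba1 tumors, 3.04% in Myc-CaP tumors labelled sgUba1, 0.0269% in Uba1 OE tumors and 0.145% in TAK-243 tumors. At an unadjusted p under 0.05 the counts were 0, 0, 1 and 0. Bulk tumor RNA also holds host cells, and fewer cells of a type and less RNA per cell cannot be told apart in it. The tumor values were mostly far more spread than those of cells, and single tumors stood high in several genes at once. EV tumors were an exception for some genes. The SD of log2 CPM for Hspb1 was 0.0324 in EV tumors and 0.0315 in untreated cells.

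In mice given TAK-243, Hspa1b and Hspb1 spanned more than in vehicle tumors, and no test of spread was made. Hspa1b lay at 144, 217 and 300 CPM (lowest, median and highest of 6) in vehicle tumors and at 174, 105, 344, 315 and 495 CPM in TAK-243 tumors 1 to 5, a log2 difference of 0.35 (SE 0.321, adjusted p = 0.631). Hspb1 lay at 234, 299 and 376 CPM in vehicle tumors and at 224, 247, 240, 394 and 618 CPM with TAK-243, a difference of 0.21 (SE 0.248, adjusted p = 0.711). In both genes TAK-243 tumors lay below, within and above the vehicle range.

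TAK-243 tumor 5 was the highest of the 11 tumors for 7 of the genes, Hspa1a (194 CPM), Hspa1b (495), Hsph1 (289), Dnajb1 (126), Hspb1 (618), Bag3 (59.9) and Hsp90aa1 (1487), and for the last the other 4 treated tumors lay at 920 to 1023 CPM, within the vehicle range of 792 to 1237. The same tumor had the highest sum of immediate early genes, 1009 TPM compared with 360 to 604 in the other treated tumors and 397 to 625 in vehicle tumors, and the part of these genes in the heat shock values was not tested. Hspd1 went the other way as a group, at 581, 859 and 950 CPM in vehicle tumors and at 676, 756, 817, 473 and 608 CPM with TAK-243, a difference of -0.29 (SE 0.156, adjusted p = 0.409). The remaining genes differed by -0.02 to 0.34. Leukocyte markers summed to 210 to 467 TPM with TAK-243 and 177 to 286 with vehicle (2 of 9 tested higher). Skeletal muscle markers summed to 78.9 to 144 TPM with TAK-243 and 81.7 to 534 with vehicle, and 0 of 10 tested were positive with 0 called. The part of either list was not tested. Without tumor 1, which held the keratinocyte markers, 0 of the 10 genes were called as well.

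For each of the 10 genes the SE in these tumors was larger than in cells, for Hspb1 0.248 compared with 0.0339, which sets what could have been seen. The Hspb1 difference plus 2 SE stayed below 1 in tumors, whereas the rise in cells was 3.50. Doses and times differed between the animals and the dishes, and the tumor and cell effects were not compared by a test.

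The Myc-CaP tumors labelled sgUba1 ranged widely around their controls. Hspa1b lay at 260, 171 and 267 CPM in sgNC tumors and at 95.1, 160 and 633 CPM (lowest, median and highest of 7) in tumors labelled sgUba1, a difference of -0.02 (SE 0.536, adjusted p = 0.987). Hsph1 lay at 194, 92 and 206 CPM and at 84.4, 176 and 667 CPM, a difference of 0.56 (SE 0.577, adjusted p = 0.596). In both genes the top value came from tumor 7. For Hspa1b, 4 of the 7 tumors lay below every control and 1 above. For Hsph1, 1 lay below every control and 2 above.

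Tumor 7 was the highest of the 10 tumors for Hspa1a (232 CPM), Hspa1b (633), Hsph1 (667), Dnajb1 (130), Hspb1 (774), Bag3 (95.8), Hsp90aa1 (1591) and Hspd1 (1078). Its sum of immediate early genes, 647 TPM, lay within the range of the others (484 to 1556, the highest in tumor 3). The part of these genes in the heat shock values was not tested. The control tumors were spread too, because sgNC tumor 2 had the lowest Dnajb1 (29.5 CPM compared with 66.9 and 55.5 in the other controls), Hspb1 (119 compared with 429 and 347) and Hsp90aa1 (716 compared with 1169 and 1184).

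Among the tumors labelled sgUba1, Hsf1 was split between the same tumors as Uba1. It was at 43.3, 40.8 and 48.4 CPM in sgNC tumors, at 32.7, 29.7 and 33.8 CPM in tumors 1 to 3, where Uba1 was low, and at 69.8, 59.5, 64.2 and 60.2 CPM in tumors 4 to 7, where Uba1 was above the controls. The first 3 lay below and the last 4 above every control, and over all 7 the difference was 0.18 (SE 0.282, adjusted p = 0.74 by edgeR). The share of all genes that split in this way was not counted, and a link between Hsf1 and Uba1 was not tested. A fit without tumors 4 to 7 was chosen after the data were seen. In it 0 of the 10 genes were called and 1 passed at an unadjusted p under 0.05. The differences of Hsf1, Hspb1, Hspa1a and Hsph1 turned to -0.47, -0.45, -0.42 and -0.38. Hspa1b went from -0.02 to -0.58, and Dnajb1 and Hsp90aa1 (0.26 each), Bag3 (0.08), Hspd1 (0.06) and Hspa8 (0.04) stayed positive. Leukocyte markers, which summed to 376 to 706 TPM in tumors labelled sgUba1 and 235 to 389 TPM in controls, moved with the group (4 of 8 tested higher), and skeletal muscle markers, at 89.9 to 240 TPM compared with 76.2 to 139, were positive for 9 of 9 tested with 0 called. The part of either list was not tested.

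Among the wider lists in tumors, 1 gene passed the test, Hspa4l, an Hsp110 related to Hsph1, which fell by 0.83 (SE 0.131, adjusted p = 0.0193) in tumors labelled sgUba1. Without the 4 tumors whose Uba1 lay above every control it differed by -0.75 and was not called (adjusted p = 0.117 by edgeR). The 4 lists of cytosolic, TRiC and mitochondrial chaperones and heat shock factors held 50 genes, of which 48 to 50 were tested, and in the other 3 tumor comparisons 0 were called.

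Uba1 overexpression gave small differences. Hspa1a lay at 74.6, 61.6 and 58.9 CPM in EV tumors and at 109, 106, 100 and 61.5 CPM in Uba1 OE tumors, a difference of 0.53 (SE 0.198, adjusted p = 0.223 by edgeR), and was the gene that passed at an unadjusted p under 0.05. Tumors 1 to 3 lay above every EV tumor and tumor 4 did not, and without tumor 4 Hspa1a was called (0.70). Hspa1b differed by 0.41 (SE 0.201, adjusted p = 0.323), Bag3 by -0.22 (SE 0.107, adjusted p = 0.316), and the others by 0.08 to 0.28. Skeletal muscle markers summed to 92.5 to 618 TPM in Uba1 OE and 96.3 to 125 TPM in EV tumors, and 8 of 8 tested were positive with 0 called. Leukocyte markers summed to 96.3 to 424 TPM and 320 to 409 TPM, and 0 of 7 tested were positive with 0 called. The part of either list was not tested.

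Hspb1, Hspa1a and Hspa1b stood far lower in B16-BL6 than in Myc-CaP tumors. In TPM, Hspb1 stood at 1.87 ± 0.638 (SD, n = 3) in B16-BL6 sgNC tumors and at 647 ± 337 (n = 3) in Myc-CaP sgNC tumors, Hspa1b at 6.61 ± 0.954 compared with 134 ± 27.2, and Hspa1a at 1.84 ± 0.26 compared with 45.4 ± 9.93. By contrast Hspa8 was higher in B16-BL6 (1634 ± 122 compared with 965 ± 125 TPM), and Hsp90aa1 (612 ± 81.2 and 553 ± 130), Hspd1 (438 ± 39.1 and 497 ± 105), Bag3 (30 ± 1.83 and 34.6 ± 6.6), Dnajb1 (20.9 ± 1.74 and 27.1 ± 9.63) and Hsph1 (62.4 ± 13.3 and 88.4 ± 38.3) lay within 1 SD of the more spread group. Hsf1 stood at 31.6 ± 2.49 and 37.4 ± 2.65 TPM. These levels come from separate experiments in different mouse strains, the line and the experiment cannot be told apart, and no test was made.

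Within B16-BL6, sgUba1 tumors differed from sgNC tumors by -0.13 to 1.26 on the log2 scale. Hspb1 was at 0.596, 0.925 and 1.18 CPM in sgNC tumors and at 0.839, 1.31, 1.22 and 5.21 CPM in sgUba1 tumors, a difference of 1.26 (SE 0.606, adjusted p = 0.333) that rested on tumor 4. Hspa1b was at 11.7, 14.8 and 10.7 CPM and at 20.2, 7.12, 44.5 and 12.3 CPM, with tumor 3 highest, and the difference was 0.75 (SE 0.493, adjusted p = 0.472). Hspa8 was at 2283, 2688 and 2504 CPM and at 2933, 2581, 2684 and 3083 CPM, a difference of 0.18 (SE 0.0852, adjusted p = 0.329), with the groups overlapping. Skeletal muscle markers summed to 23.7 to 349 TPM in sgUba1 and 15.5 to 93.5 TPM in sgNC tumors (11 of 11 tested positive, 0 called), leukocyte markers to 157 to 214 and 96.7 to 166 TPM (9 of 10 positive, 0 called), and the part of either list was not tested. The plot of tumor values shows the gap between the lines in 3 panels and the single high tumors in the others.

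**Figure D5:**
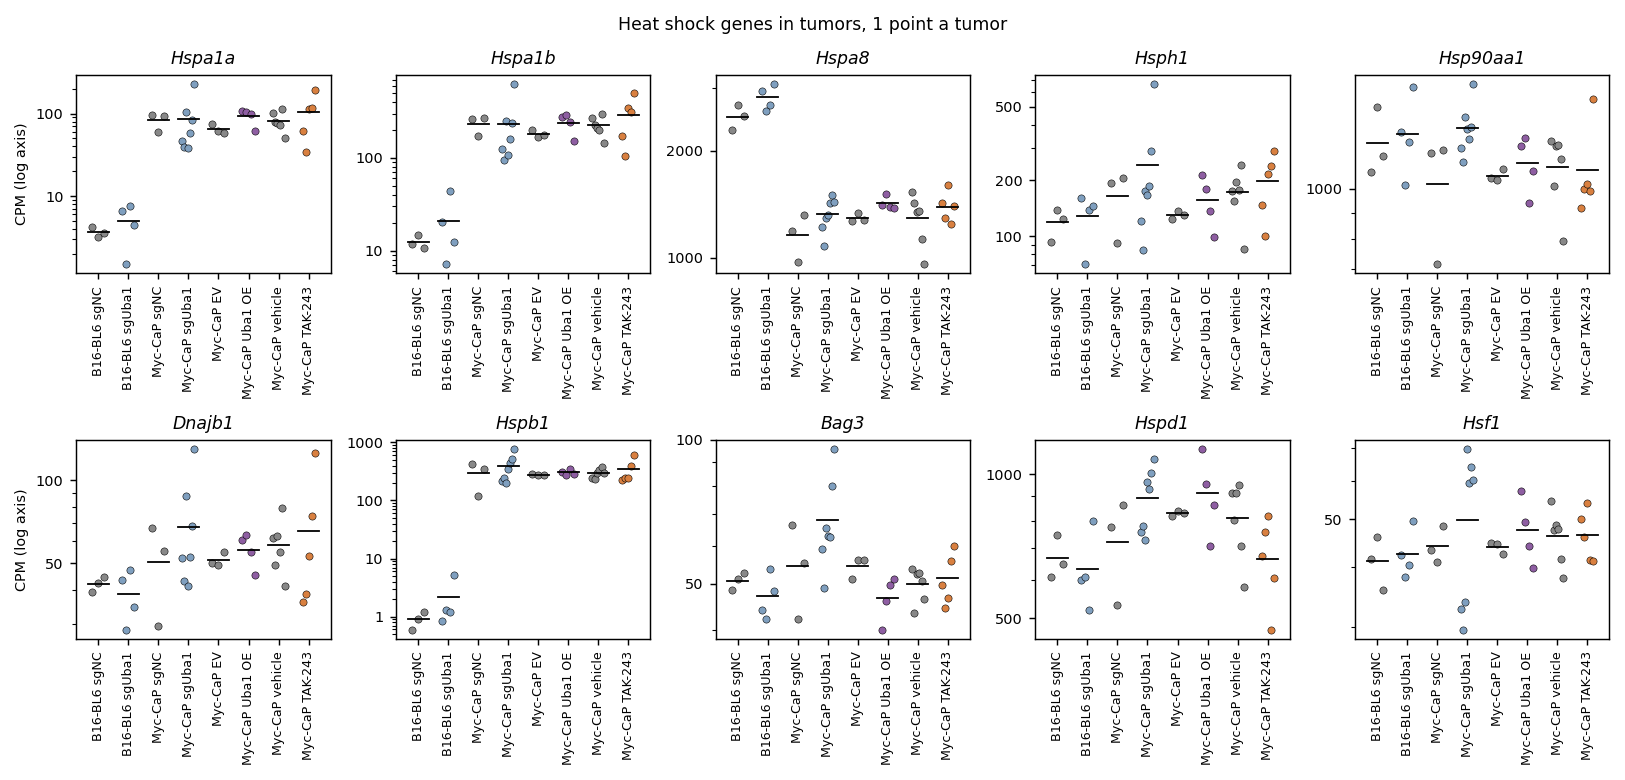
CPM of each gene (log axis, its range set per panel) in the 35 tumors, with 1 point a tumor and a bar at the group mean; CPM is scaled within an experiment. Hspa1a, Hspa1b and Hspb1 are far lower in B16-BL6 than in Myc-CaP tumors, and 1 tumor labelled sgUba1 and 1 TAK-243 tumor stand high in several panels.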

How the data were processed

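Total RNA-seq of 35 tumors and 16 cell libraries was quantified by the authors with kallisto on mm10, per the labels and the submitters' processing notes (versions are not given in the sources used here). The deposited gene tables hold TPM values and expected counts. The labels describe poly-A selection and the methods ribosomal RNA removal. Expected counts were rounded, filtered with filterByExpr, scaled by TMM and tested with edgeR 4.0.16 (quasi-likelihood, R 4.3.3, Benjamini-Hochberg adjustment over all genes, threshold 0.05). Each tumor experiment was fitted alone and the 8 libraries of each cell experiment together. The drug and guide effects were compared in 1 fit of all 16 cell libraries. SE is the log2 fold change over the root of F. DESeq2 1.42.0 and limma 3.58.1 (voom, and log2 TPM with pseudocounts 1 and 0.1) were alternatives. The fits were tested on simulated data. Of the genes' identifiers, 97.7% matched GENCODE M21. Replicates differed by more than counting noise in all 75 pairs. Outside the 10 genes, the text names the 3 called chaperone or heat shock factor genes with the largest change in each direction. It also names Hspa5, Hsp90b1, Psmd1 and, from the genes outside all lists, the 5 most like Dnajb1. Hsf2 and Hsbp1 were named after their values were seen. The members and lists were chosen with earlier results of these data known.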

Additional observations from a re-analysis of the deposited data

Results flagged for a closer look

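In groups of 4 to 10 samples, 5 of the 50 gene and group combinations had a sample flagged by Dixon's 95% limit. Its gap to the nearest neighbour was too large a part of the range. The limit's rate of about 1 in 20 holds for independent normal values. CPM of genes that move together in the same tumors are not independent, so the 5 cannot be set against that rate. Of the 5, 3 came from tumor 7 of the Myc-CaP tumors labelled sgUba1. There Hspa1a was at 232 CPM (next 104), Hspa1b at 633 (next 249) and Hsph1 at 667 (next 290). The fourth was Hsp90aa1 at 1487 CPM in TAK-243 tumor 5 (next 1023), and the fifth was Hspb1 at 5.21 CPM in B16-BL6 sgUba1 tumor 4 (next 1.31), where the other 6 tumors of this line lay at 0.596 to 1.31 CPM.

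The other values are tested differences between the effects of 2 contrasts. The sgUba1 effect on Hspa1a differed with IFN-γ by -0.66 on the log2 scale (adjusted p = 0.0204 by edgeR). The TAK-243 effect minus the sgUba1 effect in cells was 4.43 for Hspb1, 1.99 for Hsph1, 1.83 for Hsp90aa1, 1.63 for Hspa1b, 1.51 for Dnajb1, 1.46 for Hspa8, 1.38 for Hspa1a, 1.14 for Hsf1 and 1.07 for Bag3, each positive and past the threshold.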

How the results depend on the processing

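The 10 genes in 13 comparisons gave 2116 values under the alternatives, of which 2008 kept their side of the threshold, 50 lost a call, 54 gained one and 4 called values turned sign. Of those that kept their side, 113 were uncalled values that changed sign. The 9 calls with TAK-243 in cells without IFN-γ held under every alternative run, and limma-voom added Hspd1 (0.04). The called values that turned were those of Hspa1b (-0.065 and -0.066) and Hspa8 (-0.079 each) for IFN-γ in untreated cells with log2(TPM + 1) and log2(TPM + 0.1), where the median of all genes moved as given above, and the cause was not tested. In that comparison 9 calls became 2 under Bonferroni adjustment and 3 on either TPM scale. For sgUba1 with IFN-γ, 7 became 3 under Bonferroni. For IFN-γ in NC cells, 1 became 0 under Bonferroni, RLE scaling, a minimum of 10 counts, either TPM scale and a fit of only the groups compared. For the sgUba1 by IFN-γ difference, 1 became 0 under Bonferroni and either TPM scale, and 3 without a filter. For the TAK-243 by IFN-γ difference, 0 became 1 (Hsp90aa1) with DESeq2, voom, RLE, no filter, a minimum of 10 counts and a replicate block.

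Leaving out 1 library at a time gave 0 to 0 calls in B16-BL6 sgUba1, Myc-CaP sgUba1 and TAK-243 tumors, 0 to 1 in Uba1 OE tumors, 3 to 7 for sgUba1 cells, 6 to 7 with IFN-γ, 9 to 9 for TAK-243, 9 to 10 with IFN-γ, 0 to 4 for IFN-γ in NC, 6 to 9 in untreated cells, 0 to 6 and 0 to 1 for the sgUba1 and TAK-243 differences with IFN-γ, and 9 to 10 for drug minus guide.

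Replicate numbers are not said to pair samples, and correlations of same-numbered deviations were -0.00543 to 0.118 in cells and -0.226 to 0.38 in tumors. With a replicate block the counts were 9 (7 without) for sgUba1 with IFN-γ, where Hspa8 was added as lower and Hsp90aa1 as higher, 10 (9) for TAK-243 with IFN-γ, 10 (9) for IFN-γ in untreated cells and 0 in every tumor comparison.

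Counts over all genes moved widely. The fit as reported called 127 genes in B16-BL6 sgUba1 (24 with Bonferroni, 532 with DESeq2, 204 unfiltered). In Myc-CaP labelled sgUba1 it called 492 (3 with Bonferroni, 1862 with DESeq2, 2 with the block, 1406 with all 17 tumors). Without the 4 tumors whose Uba1 lay above every control that count was 1. The reported fit called 4 in Uba1 OE (723 with DESeq2, 33 unfiltered) and 25 in TAK-243 tumors (558 with DESeq2, 0 at a minimum of 10 counts). In cells the ranges, with all libraries kept, were 511 to 5037 for sgUba1 (4618), 974 to 7119 with IFN-γ (6119), 18 to 1460 for IFN-γ in NC (603), 1000 to 4384 in untreated cells (4216), 4 to 1487 for the sgUba1 by IFN-γ difference (720) and 1 to 488 for that of TAK-243 (347). Bonferroni left 5793 of 9644 calls for TAK-243 and 3935 of 8692 for drug minus guide. Leaving out 1 library gave 43 (without sgNC 1) to 320 (without sgUba1 4) in B16-BL6 sgUba1 tumors, 10 (without sgNC 2) to 692 (without sgUba1 2) in Myc-CaP tumors labelled sgUba1, 0 (without EV 2, for one) to 386 (without Uba1 OE 1) in Uba1 OE tumors and 1 (without vehicle 1) to 299 (without tumor 5) in TAK-243 tumors. In cells it gave 2932 to 5641 (without NC 1) for sgUba1, 35 to 2721 (without NC 1) for IFN-γ in NC, 14 to 2622 (without NC 2) for the sgUba1 by IFN-γ difference and 85 to 329 for that of TAK-243. The background shares move with these counts.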

Other observations

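Dnajb1 was used as the reference to ask which transcripts moved most like a heat shock gene. Over all 51 libraries, log2 CPM was centred within each of the 6 experiments, and the 13176 genes compared were ranked by Pearson's r with Dnajb1. This is a description with no test, since libraries share treatments and depth. Genes of the chaperone, proteasome, immediate early and marker lists were left out of this ranking, so their likeness to Dnajb1 is not given. Among the 10 genes, Hspa1a (0.857), Hsph1 (0.847), Hspa1b (0.828) and Bag3 (0.803) were most alike, Hsp90aa1 (0.767), Hspb1 (0.721) and Hspa8 (0.653) followed, and Hsf1 (0.328) and Hspd1 (0.137) were far less alike. In the 35 tumors alone the order was similar at the top (Hspa1a 0.823, Hsph1 0.82, Hspa1b 0.775) while Hspa8 dropped to 0.329 and Hsf1 to 0.0709.

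Outside the 10 genes and all the lists, Swt1 (0.774, and 0.74 in tumors alone) was most like Dnajb1. Next came Ccn1 (0.772 and 0.666), a secreted matrix protein of the immediate early class, and Cdkn1a (0.766 and 0.598), the cell cycle inhibitor p21. Csrnp1 (0.75 and 0.6) and Ier5 (0.744 and 0.569), an immediate early gene, followed.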
